A study of Mus musculus with 26 samples.

Results

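Stroma of the mammary gland from mice without Snai2 was compared between 12 and 3 months of age in 4 of the 26 RNA-seq libraries of the series. The mice were of the B6.129S1 strain and carried the genotype Snai2-LacZ/LacZ, or were wild type, and every library was made from cells pooled from 3 mice and sorted on EpCAM and CD49f, a pair of cell-surface proteins. Null stroma at 3 months was the pair of stromal libraries from pools F82 and F84. Null stroma at 12 months was the stromal library of pool A6 together with the library of pool A5 labelled luminal-basal. Wild-type stroma came from pools F79 and F81 at 3 months and from pools A1 and A2 at 12 months. The null allele was carried by the mice of both ages, so it is shared by the groups compared here. Each age has its own pools, so age and pool cannot be told apart, and no batch is named in the labels.

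The 12-month library of pool A5 was chosen by measured values, and that of pool A6 by its label. Col1a1, the gene of a collagen I chain made by fibroblasts (GRCm38, chr11:94936224-94953042), stood at 1218 CPM, a count scaled to the size of its library, in the A5 library labelled luminal-basal and at 23.9 CPM in the A5 library labelled stromal. Krt14, a keratin of basal epithelium (chr11:100203162-100207548), went the other way, at 34.8 and 1025 CPM. The pair of A5 labels was therefore treated as exchanged. For Col1a1 and Krt14 the values below are a description without a test. Sparc, a matrix glycoprotein gene, did not separate the pair, at 1698 CPM under the luminal-basal label and 1399 CPM under the stromal one. Over all genes tested, the A5 library labelled luminal-basal had a mean correlation of 0.926 with stromal libraries and 0.842 with luminal-basal ones, given as a description. Below, A5 stands for the library of that pool labelled luminal-basal.

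**Figure D1:**
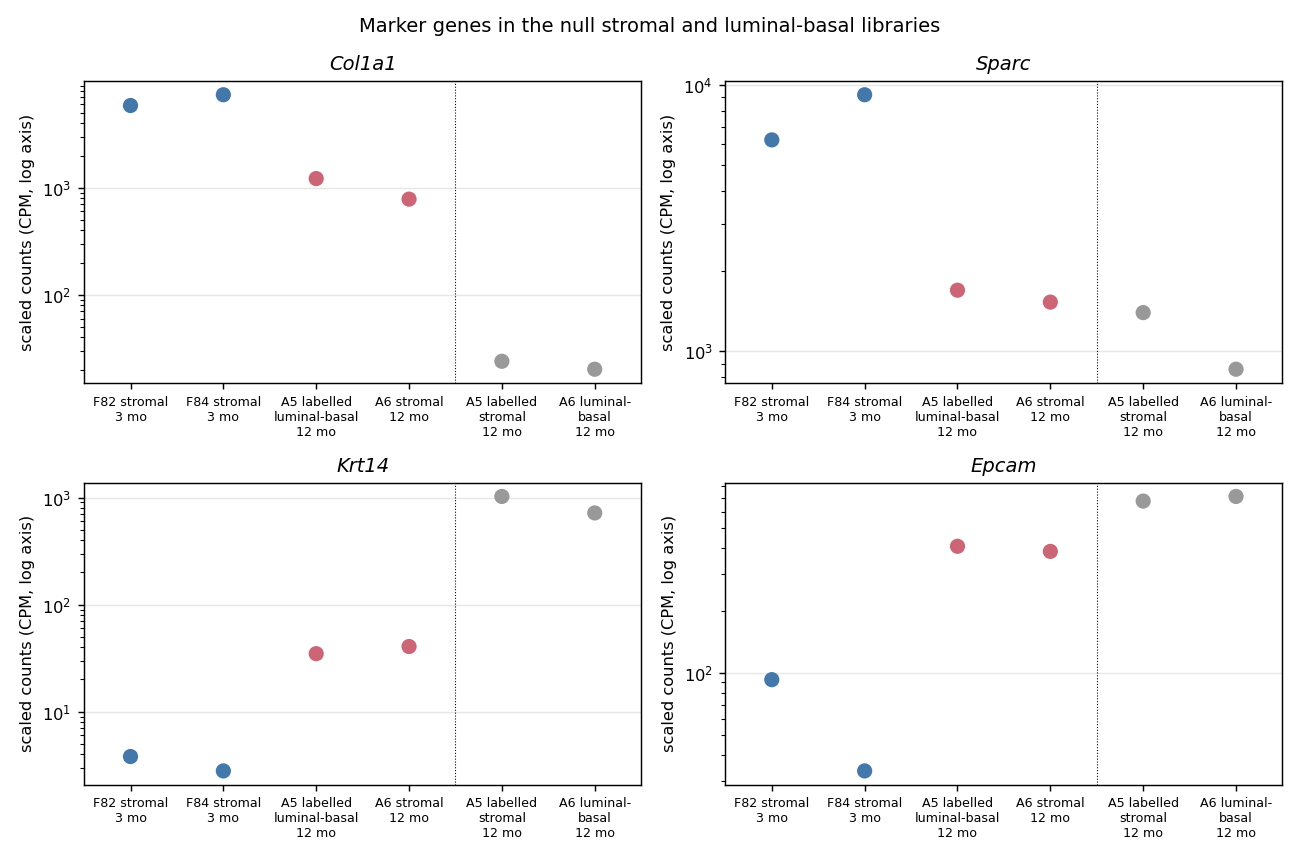
Scaled counts (CPM, log axes) of Col1a1, Sparc, Krt14 and Epcam in null stroma at 3 months (blue), null stroma at 12 months as compared here (red) and the 12-month luminal-basal fraction as placed here (grey). The A5 library labelled luminal-basal sits beside the A6 stromal library for Col1a1 and Krt14, and both lie below the 3-month libraries for Col1a1 and Sparc.

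The targeted gene was used to check the genotype labels of the stromal libraries. Snai2 (chr16:14705852-14709385) had 4 and 0 counts in F82 and F84 and 0 and 1 counts in A5 and A6, against 64 to 127 counts in the 4 wild-type stromal libraries. Over all fractions Snai2 had 4 to 597 counts in the 12 wild-type libraries. It had 0 to 44 counts in the 13 null libraries other than the A6 stromal one, so these ranges overlapped. Whether the counted exons lie in the part replaced by LacZ is not given in the sources used here. A pseudogene of a ribosomal protein, Rpl34-ps1, also differed between the genotypes, with 0 to 6 counts in the 12 wild-type libraries and 36 to 239 counts in 13 of the 14 null libraries. The A6 stromal library was the exception, with 2 counts of Rpl34-ps1, which goes against the other libraries of its genotype. This was seen after the values were known. Both 12-month libraries are thus in doubt, and results are given with all 4 libraries, with A6 alone and without A6. The 4 libraries held 4228734 to 8862854 counts, and 16723 to 19199 genes had at least 1 count. Mitochondrial ribosomal RNA took 19.5% and 16.4% of the counts in F82 and F84 and 28% and 24.7% in A5 and A6. This share was thus higher in both 12-month libraries. A fit with mitochondrial counts removed is given at the end, and beyond that its part in the results was not tested. In wild-type stroma it was 18% and 17.2% at 3 months and 18.4% and 27.8% at 12 months. Correlations of log2 CPM were 0.946 between A5 and A6, 0.936 between F82 and F84 and 0.901 to 0.918 across the ages.

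Snai2, also called Slug, is a zinc-finger repressor that binds E-box sequences in the promoters of epithelial genes such as Cdh1 and is best known for its part in epithelial-mesenchymal transition. In the mammary gland it is expressed in basal epithelium and in stromal fibroblasts. Mammary stroma holds fibroblasts, which make the collagens, glycoproteins and proteoglycans of the extracellular matrix, with vessel and immune cells beside them.

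Of 15917 genes tested with the quasi-likelihood model of edgeR, 152 (0.955%) were higher and 43 (0.27%) lower in null stroma at 12 months at a Benjamini-Hochberg adjusted p under 0.05. Genes that fell were led by extracellular matrix, and genes that rose by epithelial genes. A further grouping was chosen after the values were seen and used wild-type libraries alone. Of the 152 genes that rose, 104 (68.4%) were higher in wild-type 3-month epithelium than in stroma, none was higher in stroma and 48 in neither. Of the 43 that fell, 38 (88.4%) were higher in wild-type stroma and none in epithelium. Among all genes tested the shares were 5.21% and 9.81%. Both the 43 and the 38 include Col1a1, whose level helped to choose the A5 library. The 5 falling genes higher in neither, named after their values were seen, were Cd276, Sh3pxd2a, Il1rl1, Myh10 and Nfkb1. Libraries of the ages did not overlap for far more genes than passed the test, with both 12-month libraries above both 3-month ones for 25% of genes and below for 23.3%. In bulk libraries, fewer cells of a type and less RNA per cell cannot be told apart. The pools are the replicates, and with 2 a group every p rests on a spread estimated jointly from all 13 groups.

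With A6 alone against F82 and F84, and both A5 libraries left out, 30 of 17234 genes (0.174%) were higher and 3 (0.0174%) lower. Of these 33 genes 30 (90.9%) were among the 195 called with 4 libraries, of which they made up 15.4%. The 3 lower genes, named after their values were seen, were Sparc, Hspg2 and Rpl34-ps1. Without A6, so with A5 as the lone 12-month library, 79 genes passed, and 75 of them were among the 195. All 195 kept their direction with A6 alone and without A6. With A6 alone 13750 of all 15917 genes tested did so too. These fits reuse libraries that gave the calls, so a kept direction is no separate support. Without F84 3 genes passed the test, without F82 99 did and without A5 10, so the number of calls rests most on the 3-month library from F84.

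**Figure D2:**
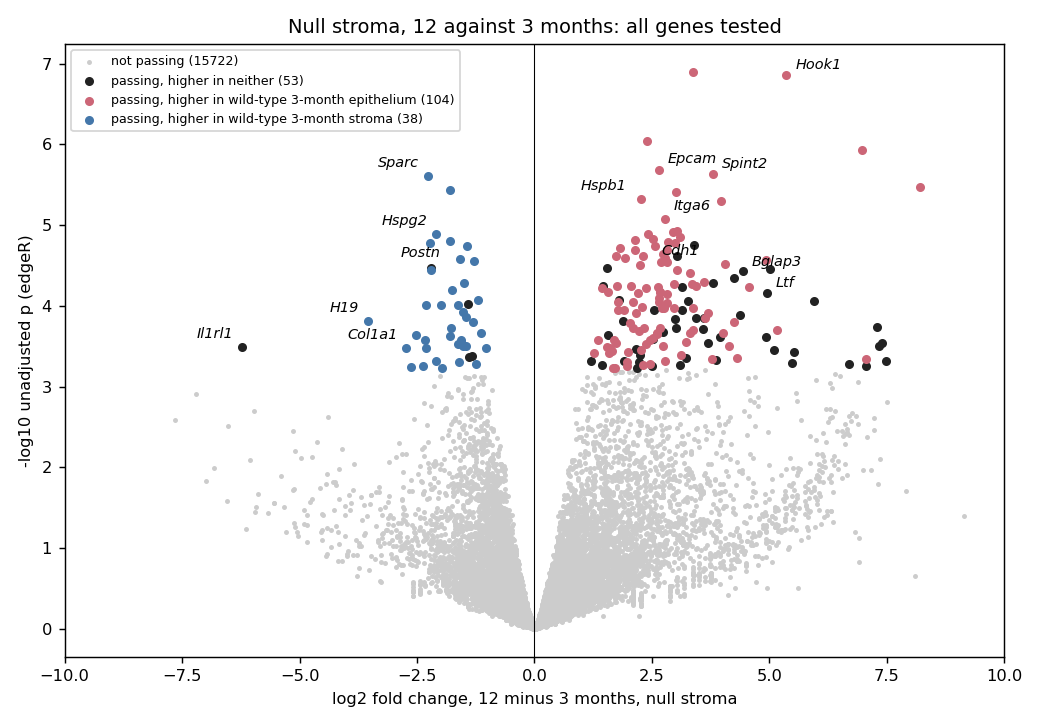
Each point is 1 of 15917 genes in null stroma, with the log2 fold change (12 minus 3 months) on the x axis and -log10 of the unadjusted p on the y axis. Passing genes are coloured by where they were higher in wild-type 3-month libraries, and the falling ones are mostly stromal (38 of 43) and the rising ones mostly epithelial (104 of 152).

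Genes of the fibrillar and interstitial matrix encode the collagens, proteoglycans and glycoproteins that fibroblasts deposit between cells. Of 25 on this list 6 passed the test, all lower at 12 months, against 0.27% of all genes tested. None was higher, and the median log2 fold change was -1.78 against 0.01 for all genes. The 6, the median, and the no-overlap count and sums that follow include Col1a1, which the choice of the A5 library used. Both 12-month libraries lay below both 3-month libraries for all 25, against 23.3% of all genes tested. The summed level of the list was 68570 CPM in F82 and 75175 CPM in F84, and 21544 CPM in A5 and 20240 CPM in A6. The groups did not overlap, and the mean was 3.44-fold higher at 3 months. In wild-type stroma the same sum was 51311 and 37428 CPM at 3 months and 33130 and 30097 CPM at 12 months, 1.40-fold higher at 3 months. The wild-type groups did not overlap for this sum either.

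Sparc (chr11:55394500-55423183), whose product binds collagen and guides its assembly, had 6235 CPM in F82, 9214 CPM in F84, 1698 CPM in A5 and 1532 CPM in A6. Both 12-month libraries were low, and the log2 fold change was -2.26 ± 0.36 (SE; edgeR, adjusted p = 0.00555). With A6 alone Sparc fell by 2.32 (edgeR, adjusted p = 0.0468), and without A6 by 2.15 (adjusted p = 0.0482). Without F84 the log2 fold change of Sparc was -1.96, with adjusted p = 0.0966. Col1a1, whose level chose the A5 library, stood at 5868 and 7395 CPM at 3 months and at 1218 and 783 CPM at 12 months, a log2 difference of -2.73 given as a description. Col3a1, the gene of collagen III (chr1:45311538-45349706), had 8212 and 10099 CPM at 3 months and 1583 and 1387 CPM at 12 months. Its log2 fold change was -2.62 ± 0.63 (edgeR, adjusted p = 0.047), and with A6 alone -2.71 (adjusted p = 0.296).

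Libraries at 3 months were higher for the other passing members too. Postn, the gene of the matricellular protein periostin, had 5363 and 6793 CPM against 1744 and 1733 CPM, and fell by 1.81 ± 0.33 (edgeR, adjusted p = 0.0107). Col5a2, a chain of the collagen V that nucleates fibrils, had 580 and 681 CPM against 157.9 and 158.2 CPM, and fell by 1.996 ± 0.42 (adjusted p = 0.0183). Bgn, the small proteoglycan biglycan, had 2629 and 2648 CPM against 864 and 1046 CPM, and fell by 1.47 ± 0.35 (adjusted p = 0.0341). None of these 3 passed with A6 alone, where the adjusted p was 0.086 for Postn, 0.116 for Col5a2 and 0.275 for Bgn. Their log2 fold changes there were -1.80, -1.99 and -1.33.

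Basement membrane genes encode the sheet of collagen IV, laminin and perlecan under epithelium and around vessels. Of 13 tested 6 fell, against 0.27% of all genes tested, none rose, and the median was -1.45. The 12-month libraries lay below both 3-month libraries for 12, against 23.3% of all genes tested. Hspg2, the gene of perlecan (chr4:137468769-137570630), had 1502 and 1177 CPM at 3 months and 370 and 260.0 CPM at 12 months. It fell by 2.09 ± 0.38 (edgeR, adjusted p = 0.0107), and by 2.36 with A6 alone (adjusted p = 0.0235). Without A6 the log2 fold change of Hspg2 was -1.83, with adjusted p = 0.12. Col4a1, a collagen IV chain, had 928 and 1012 CPM against 260.3 and 312 CPM (log2 fold change -1.76 ± 0.36, edgeR, adjusted p = 0.0154). Its partner chain Col4a2 fell by 1.60 (adjusted p = 0.0444) and Col18a1, the source of endostatin, by 1.81 (adjusted p = 0.0297). Lama4 and Lamc1, both laminin chains, fell by 1.45 (adjusted p = 0.0222) and 1.31 (adjusted p = 0.0235). With A6 alone the log2 fold changes of the latter 5 genes ran from -1.79 to -1.32, and their adjusted p from 0.119 to 0.217.

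Fewer genes for enzymes that process and degrade the matrix passed the test. Among all genes tested 0.27% were called lower. Adamts2, the protease that removes the N-propeptide of fibrillar procollagens, was the 1 gene of 16 on the collagen processing list that passed. It had 271 and 460 CPM at 3 months and 72.7 and 53.5 CPM at 12 months, and fell by 2.53 ± 0.57 (edgeR, adjusted p = 0.0291; with A6 alone -2.76, adjusted p = 0.0713). The median of that list was -1.16. Serpinh1, the collagen chaperone, was at 277 and 279 CPM against 94.5 and 132 CPM (log2 fold change -1.29, adjusted p = 0.0554). Among 16 tested genes for matrix proteases and inhibitors, 2 passed, both lower, with a median of -1.06. Mmp14, a membrane-bound collagenase, had 554 and 468 CPM against 174.5 and 165 CPM and fell by 1.59 ± 0.30 (edgeR, adjusted p = 0.0112). Mmp19 fell by 2.31 ± 0.54 (adjusted p = 0.0344). With A6 alone the adjusted p was 0.102 for Mmp14 and 0.311 for Mmp19. Timp2, an inhibitor of these proteases, was at 2443 and 2706 CPM against 1295 and 1367 CPM (log2 fold change -0.95, adjusted p = 0.335).

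General fibroblast markers were lower at 12 months but did not pass the test. The spread in that test came from all 13 groups. Of 20, none was called, and the median was -1.17. The 12-month libraries lay below both 3-month ones for 18, against 23.3% of all genes tested. Dpt, the matrix protein dermatopontin, had 2198 and 2305 CPM at 3 months and 1013 and 1083 CPM at 12 months (log2 fold change -1.10 ± 0.82, edgeR, adjusted p = 0.652). Vim, the intermediate filament vimentin, had 1929 and 2251 CPM against 1464 and 1463 CPM (-0.51 ± 0.38, adjusted p = 0.648). The summed fibroblast list was 14652 and 14143 CPM at 3 months and 7016 and 7488 CPM at 12 months. Per unit of the fibroblast sum, the matrix sum was 4.68 in F82 and 5.32 in F84, and 3.07 in A5 and 2.70 in A6, so the groups did not overlap within libraries either. In wild-type stroma that ratio was 3.84 and 3.43 at 3 months and 2.75 and 3.28 at 12 months. The wild-type groups did not overlap for it either. The matrix sum of this ratio includes Col1a1, whose level helped to choose the A5 library. A test on 2 against 2 libraries was not made for this ratio.

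**Figure D3:**
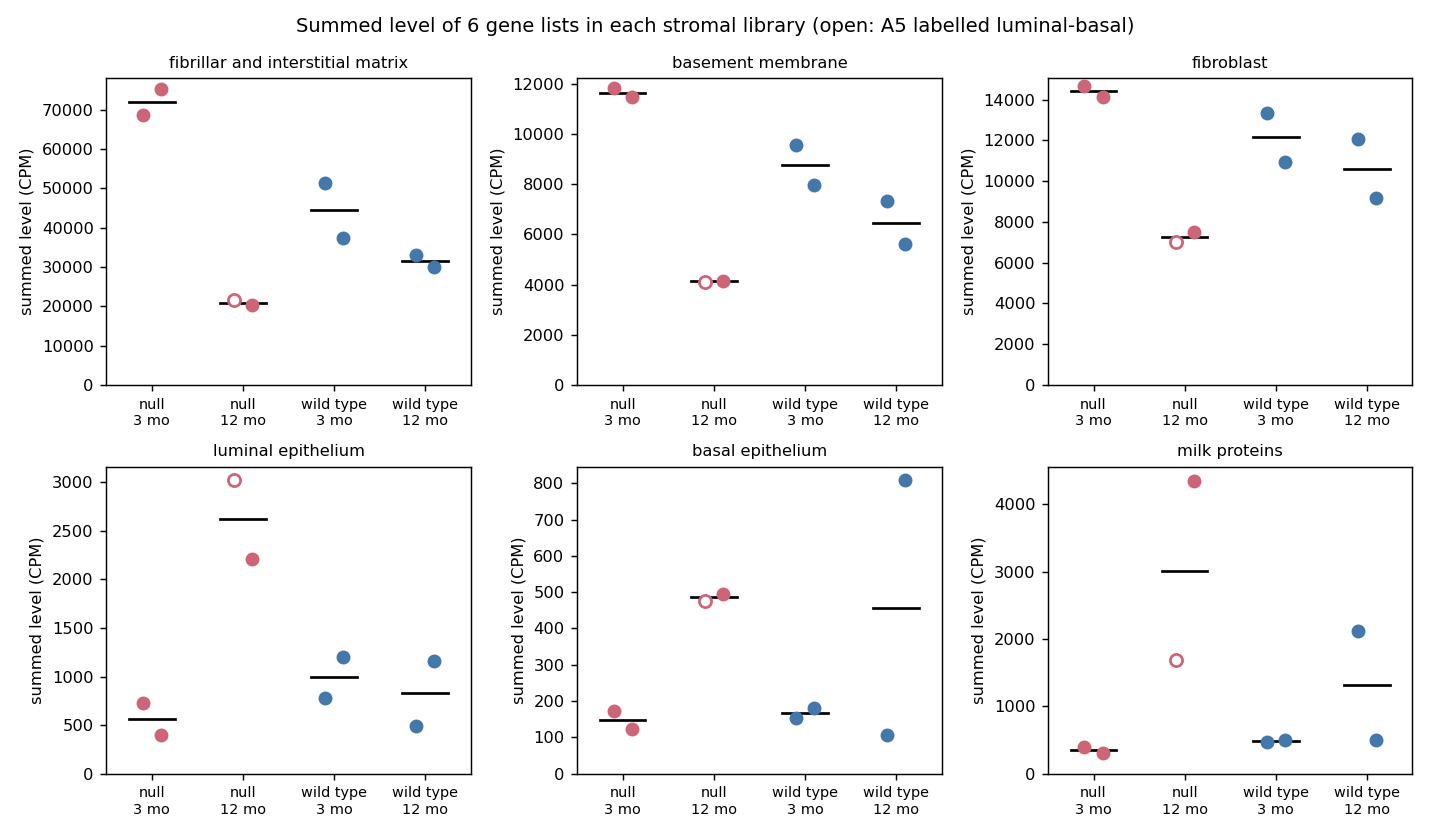
Summed level (CPM, axes from 0) of 6 gene lists in the 8 stromal libraries, with bars at the group means and the open symbol for the A5 library labelled luminal-basal. In null stroma the matrix sum goes from 68570 and 75175 CPM at 3 months to 21544 and 20240 CPM at 12 months, and the luminal sum from 725 and 401 CPM to 3022.5 and 2212 CPM.

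The other genes among the 12 largest falls, taken by the rule for named genes given with the methods, had varied roles. H19, an imprinted long noncoding RNA (chr7:142575529-142578143), had 52.6 and 103 CPM at 3 months and 4.32 and 9.08 CPM at 12 months, and fell by 3.55 ± 0.78 (edgeR, adjusted p = 0.0233). In wild-type stroma H19 was at 48.4 and 41.4 CPM and then at 8.94 and 9.18 CPM, a change of -2.31 with adjusted p = 0.392. Il1rl1, an interleukin receptor, was high in 1 library only, with 4.60 CPM in F82, 69.8 CPM in F84, 0.682 CPM in A5 and 0.202 CPM in A6 (log2 fold change -6.22, adjusted p = 0.0343). Without F84 the log2 fold change of Il1rl1 was -3.25, with adjusted p = 0.595. Ptx3, a secreted pattern-recognition protein, fell by 2.31 (adjusted p = 0.0183), Itga5, the fibronectin receptor subunit, by 2.21 (adjusted p = 0.012), and Adam12, a membrane protease, by 2.22 (adjusted p = 0.0107). Frem1, a protein of the epithelial basement membrane, fell by 2.37 (adjusted p = 0.0467) and Irak3, a brake on Toll-like receptor signalling, by 2.32 (adjusted p = 0.0312). With A6 alone none of these 7 genes passed. Igsf10, named after its values were seen, fell by 1.79 (edgeR, adjusted p = 0.00621), and its call depended on which library was left out.

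Epithelial genes made up most of what rose. Of 20 luminal epithelial genes 9 passed the test, all higher at 12 months, against 0.955% of all genes tested. The median of the list was 2.23. The 12-month libraries were above both 3-month ones for 19, against 25% of all genes tested. Epcam, the adhesion molecule used in the sort (chr17:87635979-87651129), had 92.6 CPM in F82, 33.5 CPM in F84, 409 CPM in A5 and 387 CPM in A6. It rose by 2.65 ± 0.42 (edgeR, adjusted p = 0.00555), and by 2.61 with A6 alone (adjusted p = 0.0367). Without F84 the log2 fold change of Epcam was 2.10, with adjusted p = 0.102. Cdh1, the gene of E-cadherin (chr8:106603351-106670246), had 45.03 and 24.1 CPM at 3 months and 247 and 151 CPM at 12 months, and rose by 2.52 ± 0.46 (adjusted p = 0.0107). Cldn4, a tight junction claudin, had 5.87 and 3.55 CPM against 71.2 and 29.1 CPM, and rose by 3.39 ± 0.61 (adjusted p = 0.0107). Cd24a, a surface marker of luminal cells, rose by 2.82 and Krt18, a luminal keratin, by 2.14 (both adjusted p = 0.0107). The other 4 that passed were Esrp1, Krt7, Elf5 and Elf3. With A6 alone Epcam and Esrp1 passed, and the adjusted p was 0.0824 for Cdh1 and Cldn4.

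Epithelial levels in these libraries were set against the luminal library of the same pool. The summed luminal list stood at 9.86% of its luminal library in F82, 3.39% in F84, 31.4% in A5 and 28.7% in A6. Epcam stood at 9.998% and 2.75% at 3 months and at 41.2% and 47.7% at 12 months. Lcn2, the gene of the iron-binding protein lipocalin 2 that luminal cells secrete, was at 8.62% and 3.47% and then at 91.3% and 97.2%. It had 115 and 42.9 CPM at 3 months and 863 and 438 CPM at 12 months, and rose by 3.04 ± 0.53 (edgeR, adjusted p = 0.0107; with A6 alone 2.47, adjusted p = 0.0804). In wild-type stroma the luminal sum was 783 and 1201 CPM at 3 months and 489 and 1164 CPM at 12 months, and the groups overlapped. At 12 months no luminal gene was at 0 counts, and at 3 months Elf5 and Elf3 were at 0 in F84. The part of epithelial cells or their RNA in these libraries, and in the lower matrix levels beside them, was not tested.

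Of 16 basal epithelial genes 1 passed, as higher, against 0.955% of all genes tested. Both 12-month libraries were above both 3-month ones for 13, against 25% of all genes tested. The 13, the median and the sum include Krt14, which the choice of the A5 library used. Itga6, the gene of CD49f, the other protein of the sort (chr2:71745616-71858416), had 24.1 and 15.99 CPM at 3 months and 132 and 143.5 CPM at 12 months. It rose by 2.77 ± 0.48 (edgeR, adjusted p = 0.0103), and by 2.84 with A6 alone (adjusted p = 0.0465). Krt14, whose level helped to choose the A5 library, was at 3.81, 2.79, 34.8 and 40.6 CPM in F82, F84, A5 and A6, given as a description. Krt5, its partner keratin, had 12.4 and 7.36 CPM against 57.1 and 49.0 CPM (log2 fold change 2.41, adjusted p = 0.37). The median of the list was 1.81 in null and 2.23 in wild-type stroma. The summed basal level of null stroma was 172 and 123 CPM at 3 months and 475 and 496 CPM at 12 months. In wild-type stroma it was 152 and 180 CPM at 3 months. At 12 months it was 106 CPM in A1 and 809 CPM in A2, so the wild-type groups overlapped.

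Of 12 milk protein genes none passed the test, and the median was 2.05. Both 12-month libraries were above both 3-month ones for 7, against 25% of all genes tested. Csn2, beta-casein, had 7.29 CPM in F82, 32.7 CPM in F84, 153.7 CPM in A5 and 2087 CPM in A6 (log2 fold change 5.83 ± 3.00, edgeR, adjusted p = 0.451). The pair of 12-month libraries was far apart. Csn3, kappa-casein, had 48.8 and 12.2 CPM against 565 and 317 CPM (log2 fold change 3.84, adjusted p = 0.0617). At 12 months Csn3 stood at 64.0% and 77.5% of the luminal library of its pool, and at 3 months at 10.1% and 2.75%. Wild-type stroma held 375 CPM of Csn1s1 in A1 and 37.4 CPM in A2, so wild-type 12-month pools were far apart as well.

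The 12 largest rises among genes with a symbol other than a numbered gene model or clone include genes of epithelial junctions, secretion and signalling. Hook1, a linker of cargo to microtubules (chr4:95967240-96025413), had 0.793 CPM in F82, 0 in F84, 19.1 CPM in A5 and 21.2 CPM in A6, or 5, 0, 168 and 105 counts. It rose by 5.36 ± 0.71 (edgeR, adjusted p = 0.00109), and was the 1 gene of the 195 that passed with each of the 4 libraries left out in turn. With A6 alone it rose by 5.44 (adjusted p = 0.0065). Ltf, the milk and neutrophil iron-binding protein lactoferrin, had 2.06 and 1.27 CPM against 68.6 and 37.7 CPM and rose by 4.94 (adjusted p = 0.0154). Spint2, an inhibitor of serine proteases of epithelium, had 2.85 and 0.508 CPM against 25.6 and 25.8 CPM and rose by 3.80 ± 0.61 (adjusted p = 0.00555; with A6 alone 3.81, adjusted p = 0.0332). Marveld3, a tight junction protein, rose by 4.01 (adjusted p = 0.0283), Fzd6, a Wnt receptor, by 4.24 (adjusted p = 0.0235), and Myb, a transcription factor, by 4.24 (adjusted p = 0.0142). The remaining ones, Bglap3, Sowahb, Clca3a1, Vipr1, Ccdc129 and Depdc7, rose by 3.70 to 4.43. Of the 12, Hook1, Sowahb, Clca3a1 and Spint2 passed with A6 alone.

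Transcription factors that drive or oppose the epithelial-mesenchymal transition were mostly not called. Of 14 tested 2 passed, both higher, against 0.955% of all genes tested, and the median was 0.10. That median lay close to 0 and changed sign, to -0.106 with A6 alone and -0.1483 without A6. Sox9, a factor of epithelial progenitors (chr11:112782224-112787760), had 42.6 and 40.1 CPM at 3 months and 235 and 174 CPM at 12 months, and rose by 2.30 ± 0.43 (edgeR, adjusted p = 0.0112; with A6 alone 2.08, adjusted p = 0.0315). Grhl2, which maintains epithelial identity, had 7.13 and 2.03 CPM against 34.9 and 23.6 CPM, and rose by 2.62 (adjusted p = 0.0288; with A6 alone 2.30, adjusted p = 0.215). The mesenchymal repressor Zeb2 had 628 and 594 CPM against 359 and 443 CPM (log2 fold change -0.61, adjusted p = 0.799). Tcf4, an E-box binding factor, had 587 and 521 CPM against 321 and 329 CPM (-0.77, adjusted p = 0.17). Snai1, the close relative of Snai2, was low throughout, at 8.72 and 6.599 CPM against 12.7 and 9.28 CPM (0.52 ± 0.76, adjusted p = 0.851).

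Because Snai2 binds E-boxes, the promoters of a few of these genes are shown, each from 250 bases before to 50 after the RefSeq start (GRCm38.p6), 5′ to 3′ on the strand of the gene. Capitals mark the letters CACCTG or CAGGTG, the same E-box read on both strands. Epcam, Spint2 and Cldn4 are examples of genes that rose and Sparc of those that fell. Each example holds the letters, which most rising and most falling genes with a promoter do not.
Epcam, chr17:87635729-87636028, plus strand: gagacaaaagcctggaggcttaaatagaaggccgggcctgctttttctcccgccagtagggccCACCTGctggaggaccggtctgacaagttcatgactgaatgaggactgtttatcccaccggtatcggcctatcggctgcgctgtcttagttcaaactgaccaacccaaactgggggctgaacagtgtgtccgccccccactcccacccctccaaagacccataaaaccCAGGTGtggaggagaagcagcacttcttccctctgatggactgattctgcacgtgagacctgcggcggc
Spint2, chr7:29281928-29282227, minus strand: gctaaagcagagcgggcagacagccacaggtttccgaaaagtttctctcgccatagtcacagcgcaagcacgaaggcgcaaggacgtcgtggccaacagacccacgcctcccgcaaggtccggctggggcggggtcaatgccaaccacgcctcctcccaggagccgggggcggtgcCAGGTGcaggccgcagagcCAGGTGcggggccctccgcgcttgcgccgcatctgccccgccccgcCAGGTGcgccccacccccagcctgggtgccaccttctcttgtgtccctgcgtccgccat
Cldn4, chr5:134946885-134947184, minus strand: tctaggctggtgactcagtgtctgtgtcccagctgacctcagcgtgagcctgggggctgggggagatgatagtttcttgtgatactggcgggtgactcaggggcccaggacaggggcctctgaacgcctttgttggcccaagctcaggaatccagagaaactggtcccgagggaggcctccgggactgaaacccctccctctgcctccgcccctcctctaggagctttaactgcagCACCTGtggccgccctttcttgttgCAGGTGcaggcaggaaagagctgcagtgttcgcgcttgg
Sparc, chr11:55420031-55420330, minus strand: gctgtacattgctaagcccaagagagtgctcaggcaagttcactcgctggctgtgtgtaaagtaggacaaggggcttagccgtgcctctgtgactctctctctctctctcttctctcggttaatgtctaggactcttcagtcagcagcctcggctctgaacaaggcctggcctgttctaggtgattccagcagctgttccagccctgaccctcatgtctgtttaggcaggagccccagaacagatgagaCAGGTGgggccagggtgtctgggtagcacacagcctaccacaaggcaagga
Epcam had 2 matches, Spint2 3, Cldn4 2 and Sparc 1. Of 152 rising genes 109 had a promoter in the RefSeq table, and 50 of these (45.9%) held the letters. Of rising genes higher in wild-type 3-month epithelium 70 had a promoter, and 33 of these (47.1%) held the letters. The share was 21.6% of the 10807 tested genes with a promoter, 16.7% of 30 genes that fell, 36.3% of 576 tested genes that were higher in wild-type 3-month epithelium and 17.8% of 1095 that were higher in stroma. Median GC content was 61.3% for the rising set, 60.7% for all tested and 63.3% for the epithelial set. A match is not a site of binding, the motif was chosen after the data were seen, and no test was made. Both ages carried the null allele, so the comparison does not contrast presence and absence of Snai2.

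Other cell types were described by their markers. Among all genes tested 0.955% were called higher. Endothelial genes had 1 of 14 called, Emcn, an endothelial sialomucin, at 3.65 and 3.81 CPM against 19.6 and 15.3 CPM, which rose by 2.23 ± 0.55 (edgeR, adjusted p = 0.044). With A6 alone the change of Emcn was 2.045, with adjusted p = 0.152. Pecam1, the vessel marker CD31, had 20.6 and 8.12 CPM against 65.7 and 45.8 CPM (log2 fold change 1.94, adjusted p = 0.174), and Tek, an angiopoietin receptor, 88.2 and 46.7 CPM against 39.0 and 43.6 CPM (-0.71, adjusted p = 0.747). The endothelial sum was 232 and 159 CPM at 3 months and 417 and 252 CPM at 12 months. Macrophage genes had none of 11 called and a median of 1.54, with sums of 88.3 and 41.4 CPM against 139.5 and 110 CPM. Cd14, a lipopolysaccharide co-receptor, had 18.2 and 2.79 CPM against 59.5 and 52.1 CPM (2.37, adjusted p = 0.0741). In the luminal libraries of F82 and F84 it stood at 181 and 65.7 CPM, so it does not mark macrophages alone here. The macrophage sums include Cd14, so their gap between the ages is not one of macrophage markers alone. Cd68 rose by 2.01 (adjusted p = 0.178), while Lyz2 changed by -0.12 (adjusted p = 0.986) and Mertk by 0.004. The part of these cell types in the result was not tested.

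Stress and signalling genes gave few calls. Among all genes tested 0.955% were called higher and 0.27% lower. Of 12 heat shock genes 1 passed, Hspb1, a small chaperone (chr5:135887919-135889563), with 22.7 and 26.1 CPM at 3 months and 115.6 and 121 CPM at 12 months. It rose by 2.28 ± 0.38 (edgeR, adjusted p = 0.00657), and by 2.32 with A6 alone (adjusted p = 0.0332). In wild-type stroma Hspb1 rose by 2.01 (adjusted p = 0.0327). The heat shock sum was 3212 and 4456 CPM in null stroma at 3 months and 6186 and 6587 CPM at 12 months, and in wild-type stroma 2208 and 2537 CPM and then 7119 and 5745 CPM. Pdk4, a kinase that holds back glucose oxidation and a glucocorticoid target, had 21.7 and 33.8 CPM against 345 and 138.5 CPM and rose by 3.13 (adjusted p = 0.0192), the 1 call of 14 on its list. With A6 alone the change of Pdk4 was 2.34, with adjusted p = 0.179. Among 12 complement and acute phase genes Lcn2 was the 1 call, and C3, the central complement component, had 3291 and 3959 CPM against 1939 and 1866 CPM (log2 fold change -0.93, adjusted p = 0.305). None of 18 genes of the TGF-beta pathway passed (median -0.43). Its receptor Tgfbr2 had 641 and 613 CPM against 345 and 326 CPM (-0.90, adjusted p = 0.0686). None of 24 Wnt pathway genes passed (median -0.71), with the secreted inhibitor Sfrp2 at 338 and 299.5 CPM against 177 and 137 CPM (-1.02, adjusted p = 0.385). None of 20 stromal growth factor genes passed (median -0.46), and Igf1, the growth factor that fibroblasts supply to epithelium, had 868 and 585 CPM against 280 and 245 CPM (-1.47, adjusted p = 0.499). Of 16 genes for senescence and cell-cycle arrest none passed (median 0.37), and Cdkn2a, the gene of p16, had 0 counts in all 4 libraries. None passed among 17 tested adipocyte genes, 14 of pericytes and smooth muscle, 9 of lymphocytes, 11 of skeletal muscle and 9 of nerve. The same held for 30 immediate-early genes, 15 inflammatory, 17 interferon-stimulated, 13 antigen presentation, 21 replication, 15 BMP pathway, 15 clock, 12 mitochondrial, 28 ribosomal protein and 14 antioxidant genes.

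**Figure D4:**
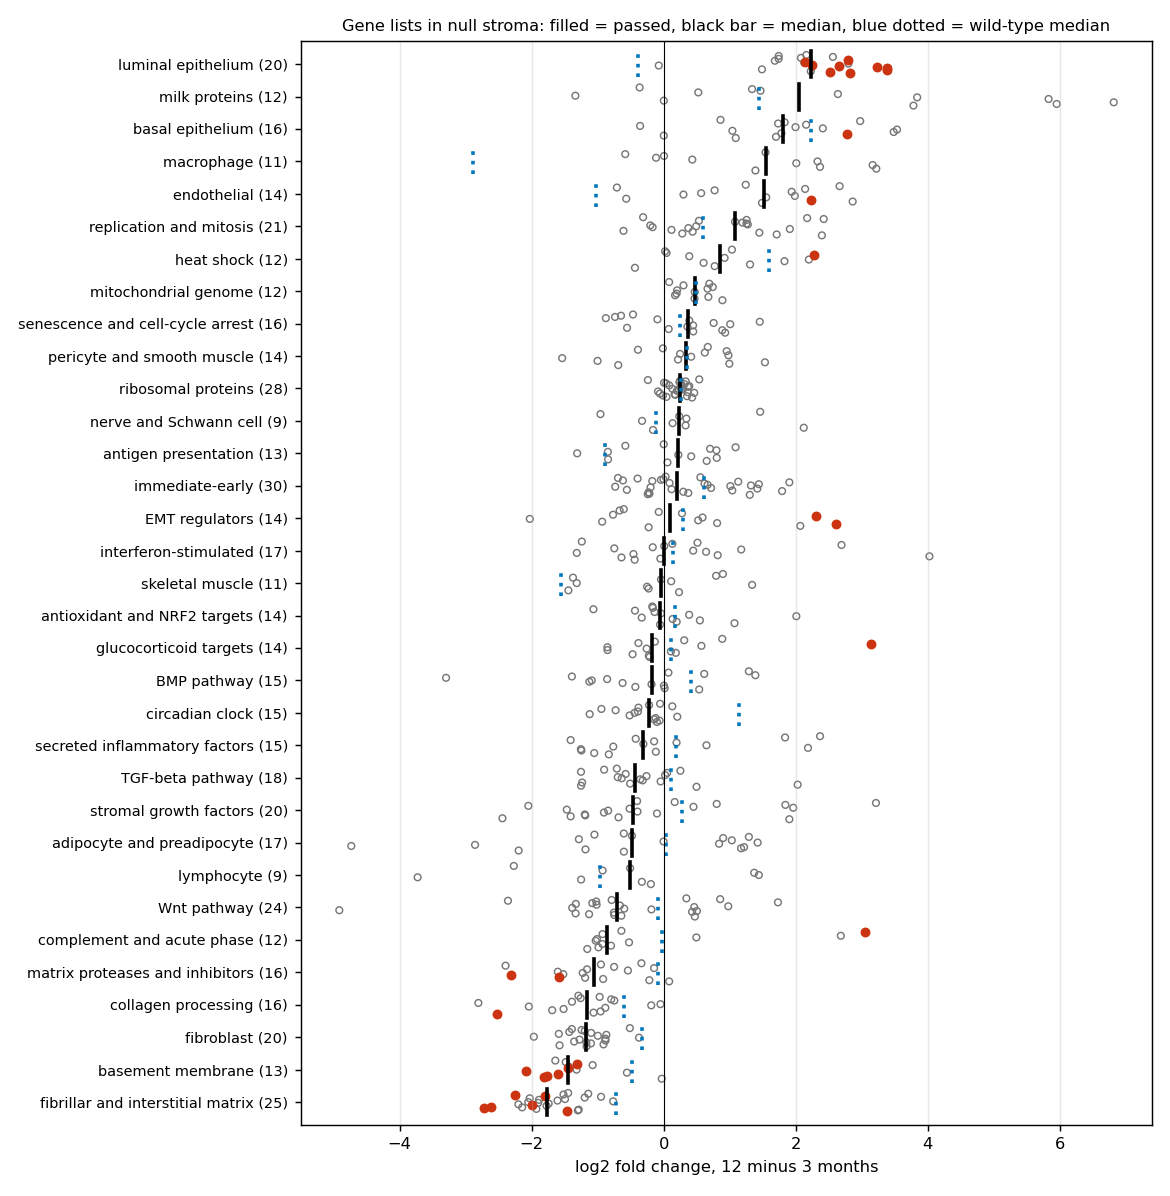
Log2 fold change (12 minus 3 months) in null stroma for each tested gene of the lists, with the number tested in brackets, filled points for genes that passed, a black bar at the list median and a blue dotted line at the wild-type median. The matrix list has a median of -1.78 in null and -0.72 in wild-type stroma, and the luminal list 2.23 and -0.38.

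Wild-type stroma served as the other genotype at the same ages. There 21 genes (0.132%) were higher and 2 (0.0126%) lower at 12 months. Of the 195 genes called in null stroma 6 (3.08%) were also among these 23 (26.1%), namely Hspb1, Mknk2, Eif4a2, Srsf2, Srsf3 and Fam83g, all higher in both. Srsf2 and Srsf3 encode splicing factors, and Eif4a2 and Mknk2 a helicase and a kinase of translation. Srsf2 rose by 1.54 in null and 1.82 in wild-type stroma (edgeR, adjusted p = 0.012 and 0.0149). All 43 genes that fell in null stroma had a negative change in wild-type stroma, with a median of -0.62 against -1.76 in null. For the 152 that rose, 98 had a positive change in wild-type stroma, and the medians were 0.28 and 2.75. Among all genes tested, 9481 of 15917 changed in the same direction in both genotypes, so the count for the rising genes is near that background. These wild-type values describe genes chosen for their change in null stroma.

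When the age change in null stroma was tested against that in wild-type stroma, no gene passed (0% of 15917). At an unadjusted p under 0.05 854 genes did, and the smallest adjusted p was 0.108. DESeq2 called 86 genes for this difference, all in the positive direction. Slc7a2, a cationic amino acid transporter, had the smallest p, with a difference of 3.05 ± 0.54 (edgeR, adjusted p = 0.108). It went from 72.9 and 30.5 CPM to 256 and 204 CPM in null stroma, and from 108 and 103.5 CPM to 41.4 and 71.5 CPM in wild-type stroma, so the levels were higher at 12 months in both null pools and lower in both wild-type pools. Krt18 had a difference of 2.72 ± 0.55 (adjusted p = 0.136) and Epb4.1, a membrane skeleton protein, of 2.34 ± 0.49 (adjusted p = 0.157). Sptlc3, an enzyme of sphingolipid synthesis, had 79 counts at 12 months against 1 at 3 months in null stroma, a ratio of 58.9 with a counting interval of 10.3 to 2355, and Cldn8 had 52 against 3 (12.9, 4.18 to 64.7). For Sparc the difference was -1.36 ± 0.49 (adjusted p = 0.636), for Postn -1.67 ± 0.46 (adjusted p = 0.292) and for Epcam 2.54 ± 0.57 (adjusted p = 0.157). A larger fall of matrix in null than in wild-type stroma was therefore not shown gene by gene at this number of pools.

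**Figure D5:**
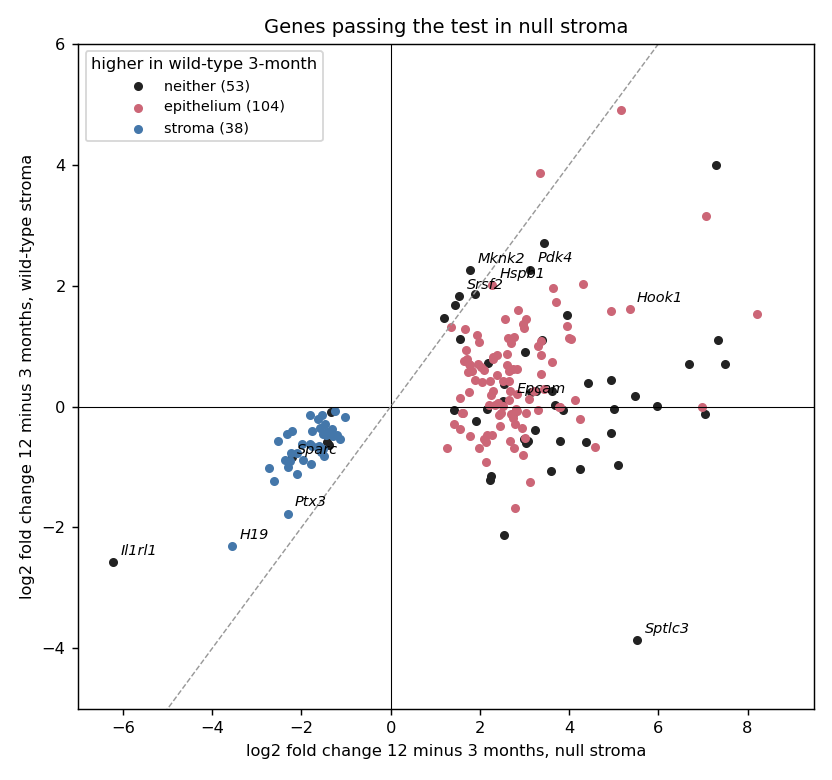
Log2 fold changes (12 minus 3 months) of the 195 genes that passed in null stroma (x axis) against those in wild-type stroma (y axis), with a dashed line of equal change. All 43 falling genes lie below 0 on both axes, and 98 of the 152 rising ones lie above 0 on both.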

How the data were processed

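The authors deposited raw read counts per gene for 26 mammary libraries, each pooled from 3 mice, sorted into stromal, luminal, basal and luminal-basal fractions and amplified before sequencing, per the labels' protocols. Reads were aligned with TopHat2 2.0.13 to GRCm38 and counted with HTSeq, per the submitters' processing notes. The sources used here do not give the HTSeq version or strand setting, so overlapping and antisense genes cannot be told apart.

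Counts were fitted as deposited with edgeR 4.0.16 and limma 3.58.1 in R 4.3.3, using TMM scaling, robust quasi-likelihood dispersion, 1 coefficient for each of 13 groups and a filter of at least 10 counts (15 in total), which left 15917 of 45706 genes. The A5 stromal and luminal-basal libraries stood in each other's group. P-values were adjusted by Benjamini-Hochberg over all genes tested, with a threshold of 0.05. CPM, counts scaled to 1e+06 per library, were computed from the deposited counts with TMM factors. On simulated counts the fit called 61 of 100 genes changed by a log2 fold change of 2, 3 of 100 changed by 1, and 7 of 15425 unchanged genes.

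The rule for named genes took a fixed set, the 12 largest rises and falls with at least 10 CPM in the higher group, no overlap of the libraries, the same direction with A6 alone and a symbol that is no numbered gene model or clone, 6 genes for the difference between genotypes and up to 4 members of each list. Further genes were named after their values were seen. The members, gene lists and tests were chosen with earlier results of these data known, and the wild-type grouping by tissue and the promoter motif after the values were seen. Intervals of count ratios are exact at a level of 0.95 and cover counting error only, since amplified reads carry no molecular identifiers. Gene positions are from GENCODE (GRCm38), matched for 45143 genes. Alternatives were DESeq2 1.42.0, DESeq2-style (RLE) scaling, no filter, the compared libraries alone, mitochondrial counts removed, the labels as given, A6 alone and each library left out. Figures were drawn with matplotlib 3.10.9.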

Additional observations from a re-analysis of the deposited data

How the results depend on the processing

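The number of called genes in null stroma depended on the fit. Against 195, it was 33 with the A6 library alone, 627 with DESeq2 (432 higher, 195 lower), 817 with no low-count filter (639 and 178) and 796 when the 4 libraries were fitted by themselves (461 and 335, or 57.9% higher against 77.9%). Leaving out a library gave 3 (without F84) to 99 (without F82) calls. It stayed within 1.5 times with RLE scaling (192), the labels as given (162) and mitochondrial counts removed (183). Of the 195 genes, 115 were still called with the labels as given, 189 with RLE scaling and 182 with mitochondrial counts removed. All 195 genes kept their direction under each alternative that gave a value, which was 193 in the fit of the compared libraries alone. Each alternative reused libraries that gave the calls. With A6 alone, 33 became 241 with DESeq2, 20 with RLE scaling, 457 with no filter and 485 in the fit of the compared libraries, and 0 (without F84) to 36 (without F82) when a library was left out.

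In wild-type stroma, 23 calls became 37 when both A5 libraries were left out, 92 with DESeq2, 14 with RLE scaling, 203 with no filter, 290 in the fit of the compared libraries and 0 with the labels as given, and 0 (without F79 or F81) to 24 (without A1) with a library left out. For the difference between genotypes, 0 became 86 with DESeq2, 240 with no filter and 9 in the fit of the compared libraries, and 0 to 55 (without A2) with a library left out. The cause of these differences was not tested.

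Among single genes 3 changed sign. Over the libraries left out, the log2 fold change of Rpl34-ps1 ran from -5.357 to 0.67 (positive without A6) and the log2 fold change of Snai2 from -4.285 to 2.25 (positive without F82). With the labels as given, the log2 fold change of Snai1 was -0.063. The endothelial median was 1.52, 0.65 with A6 alone and -0.044 with the labels as given. The median of regulators of epithelial-mesenchymal transition was 0.099, and -0.533 with the labels as given. No paired analysis was possible because the ages come from different pools and share no pool number. At 2 pools a group, changes near a log2 of 1 were rarely called in simulated counts, and genes of few counts carry wide errors.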
